A study of Homo sapiens with 2 samples.

Results

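The SR splicing factors considered here are SRSF1, SRSF2, SRSF3, SRSF4, SRSF5, SRSF6, SRSF7, SRSF10, SRSF11 and TRA2B, and they were compared between HEL cells treated with L1 and with vehicle. The members were found by gene symbol, which gave 10 genes of the 61806 in the deposited count table. All 10 passed the filter of at least 10 counts in either library, which 18123 genes met, and all 10 have an FPKM value, as 13924 genes do. The rule names genes by symbol and uses no measured value, although earlier results of these data were known when the members were chosen.

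HEL is an established human erythroleukemia cell line, listed with the genotype WT. L1, a derivative of 3,3'-diindolylmethane, was given at 1 µM, control cells received 0.5% DMSO, and RNA was taken after 24 h. RNA-seq was done on 1 library per condition, so the difference between the libraries has no replicate check and no test was run. The depth was 32556872 counts for DMSO and 27135647 for L1, and after edgeR's TMM scaling the DMSO library counted as 1.16 times the size of the L1 library. Each log2 ratio of L1 over DMSO is given with an exact 95% interval (Clopper-Pearson) that reflects only the error of counting reads. All 8 erythroid and megakaryocytic markers were detected, from EPOR with 371 and 356 counts to ITGA2B with 40168 and 35288 under DMSO and L1. Of the fetal globins, near-identical copies whose reads may be split between them, HBG1 had 5620 and 16681 counts and HBG2 20283 and 20372, and the part of this difference in the ratios below was not tested. The lymphoid markers CD3E and MS4A1 and the epithelial marker EPCAM had 0 counts in both libraries, and CDH1, COL1A1 and COL3A1 had at most 17. In bulk RNA, fewer cells of a type and less RNA per cell cannot be told apart, and neither can the treatment and the library it was measured in.

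SR proteins bind short sequences in exons through RNA recognition motifs and use a domain rich in arginine and serine to help the spliceosome choose splice sites. Kinases of the SRPK and CLK families phosphorylate this domain, which controls where the proteins reside and when they act. Many SR genes hold exons with an early stop codon, and splicing such an exon in sends the transcript to nonsense-mediated decay, a route by which these proteins limit their own levels.

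Such exons are annotated in these genes, and 5 of them are shown because gene counts pool the coding transcripts with the transcripts that carry the stop. In GENCODE release 29, every member had at least 1 transcript labelled for nonsense-mediated decay, from 1 each in SRSF5, SRSF6 and TRA2B to 6 in SRSF7. The windows hold the last coding bases of the decay-labelled transcript and its stop codon, in capitals, read on the transcript strand of GRCh38. Each lies wholly in 1 exon that at least 1 coding transcript of the same gene leaves out, and the longest such exon of a gene is shown. In SRSF7, the windows in exons left out in this way ran across an exon junction and are not shown.
TRA2B, chr3:185931772-185931801, minus strand, in an exon of 276 bases: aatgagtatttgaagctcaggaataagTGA
SRSF3, chr6:36599825-36599854, plus strand, in an exon of 456 bases: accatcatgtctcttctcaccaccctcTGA
SRSF4, chr1:29166009-29166038, minus strand, in an exon of 175 bases: ggagaggttcggttcttacaaggaaaaTGA
SRSF6, chr20:43459275-43459304, plus strand, in an exon of 268 bases: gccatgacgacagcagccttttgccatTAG
SRSF11, chr1:70231879-70231908, plus strand, in an exon of 117 bases: gttgttcataaaacagcttttgaaagtTGA
The deposited values give 1 number per gene, so reads on these exons were not separated from the others.

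The SR splicing factors did not move as 1 group between the libraries. TRA2B and SRSF10 were higher in the L1 library, SRSF1, SRSF4, SRSF11 and SRSF6 were lower, and SRSF2, SRSF3, SRSF5 and SRSF7 stood closest to equal. The log2 ratios ran from -0.61 for SRSF1 to 0.81 for TRA2B. The counting interval lay below 0 for 6 genes and above 0 for 3, and it included 0 for SRSF3. The intervals of SRSF5 and SRSF7, the middle members in the order of ratios, had a mean half-width of 0.054, so a small difference was enough to exclude 0. The share of all genes tested whose interval excluded 0 was not computed, so these numbers only describe the members. All 10 genes stayed within 2-fold.

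**Figure D1:**
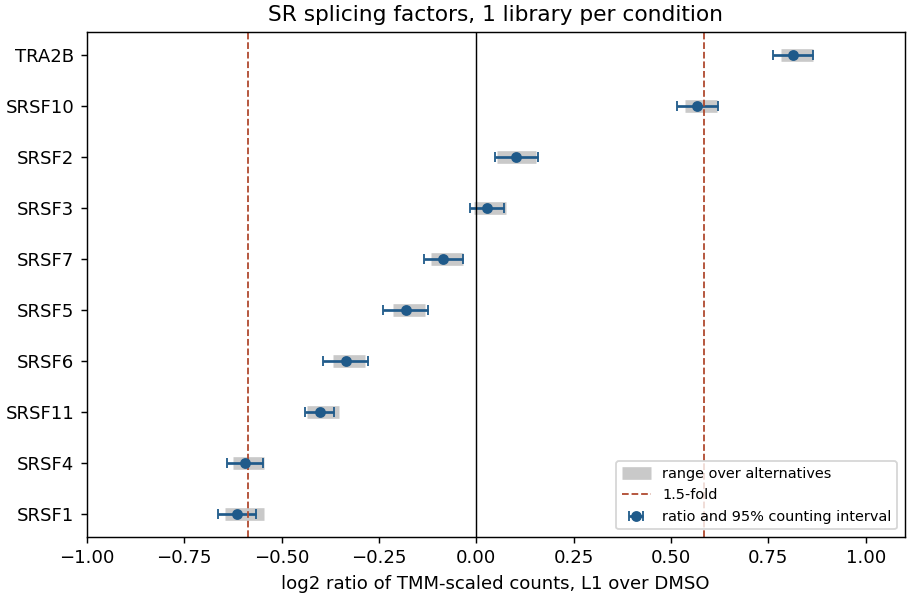
Log2 ratio of L1 over DMSO for the 10 SR splicing factors, with each point's 95% counting interval as a thin capped bar and the threshold of 1.5-fold as dashed lines. The thick grey bar behind each point is the range over the alternative scalings, the FPKM values and the sums with pseudogenes or overlapping genes. The genes run from SRSF1 at -0.61 to TRA2B at 0.81, and only the interval of SRSF3 crosses 0.

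TRA2B, which binds GAA-rich exon sequences and promotes their inclusion, had 5045 counts under DMSO and 7654 under L1. The log2 ratio of TRA2B was 0.81 (95% interval 0.76 to 0.87), a level 1.76 times as high with L1. SRSF10, an SR protein that acts as a splicing repressor when it is dephosphorylated under heat shock, had 5207 counts under DMSO and 6657 under L1. SRSF10 had a log2 ratio of 0.57 (0.51 to 0.62), a 1.48-fold higher level that lay just inside 1.5-fold, or 0.58 on the log2 scale. Both genes thus stood on the higher side with L1. The intervals of TRA2B and SRSF10 did not overlap each other or that of any other member.

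SRSF1, the first SR protein described and a regulator of both constitutive and alternative exons, had 9256 counts under DMSO and 5217 under L1. For SRSF1 the log2 ratio was -0.61 (-0.66 to -0.56), so the DMSO level was 1.53 times the L1 level. SRSF4, one of the largest classical SR proteins, had 10236 counts under DMSO and 5848 under L1, with a log2 ratio of -0.59 (-0.64 to -0.55). The DMSO level of SRSF4 was 1.51 times the L1 level. These genes were the lowest in ratio, they lay just past 1.5-fold, and their intervals overlapped.

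SRSF11, which shares the arginine and serine rich domain with the classical family, had 14542 counts under DMSO and 9494 under L1. The log2 ratio of SRSF11 was -0.40 (-0.44 to -0.36). SRSF6, a classical SR protein of the same type as SRSF4, had 6019 counts under DMSO and 4115 under L1, with a log2 ratio of -0.34 (-0.39 to -0.28). The ratios of both genes were lower than those of SRSF5 and SRSF7 and higher than those of SRSF1 and SRSF4. The DMSO level was 1.32 times the L1 level for SRSF11 and 1.26 times for SRSF6.

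The other members differed less. SRSF5, a classical SR protein, had 5737 counts under DMSO and 4365 under L1, with a log2 ratio of -0.18 (-0.24 to -0.12). SRSF7, which together with SRSF3 couples splicing to mRNA export through NXF1, had 7158 and 5825 counts and a log2 ratio of -0.08 (-0.13 to -0.03). SRSF3, the smallest SR protein, had 9075 and 7975 counts, and its log2 ratio of 0.03 (-0.02 to 0.07) was the only one that counting error alone did not separate from 0. SRSF2, a classical SR protein that stays in the nucleus and is mutated in some myeloid leukemias, had 5306 and 4917 counts and a log2 ratio of 0.10 (0.05 to 0.16). In the order of the log2 ratios, the neighbours SRSF1 and SRSF4, SRSF11 and SRSF6, SRSF5 and SRSF7, and SRSF3 and SRSF2 had overlapping intervals. The other neighbours did not overlap in counting error, and the spread between cultures was not measured.

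Summed over the members, 77581 counts fell on them under DMSO and 62067 under L1, giving a log2 ratio of -0.11 (-0.12 to -0.09). The median log2 ratio was -0.13 over the members, -0.0040 over all genes tested, and -0.02 over the 1280 genes that reached 5000 counts in either library, a minimum set after the values were seen because every member exceeded it. The sum moved less than most of the members, which differed in direction.

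Past 1.5-fold stood 1 member that was higher with L1 (TRA2B) and 2 that were lower (SRSF1 and SRSF4). Over all genes tested, 13.8% were higher and 11.4% lower past 1.5-fold, beside which the members' counts are read only as a description. At 2-fold, 0 members were higher and 0 were lower, against 7.12% and 4.83% of all genes tested. Among the genes with at least 5000 counts, 5.55% were higher and 6.17% lower past 1.5-fold, and 2.27% were higher and 1.72% lower past 2-fold. Nothing is read from 10 members against either background. Scaling by total counts or by the upper quartile placed SRSF10 past 1.5-fold, giving 2 members higher, and left SRSF1 and SRSF4 inside it, giving 0 lower.

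**Figure D2:**
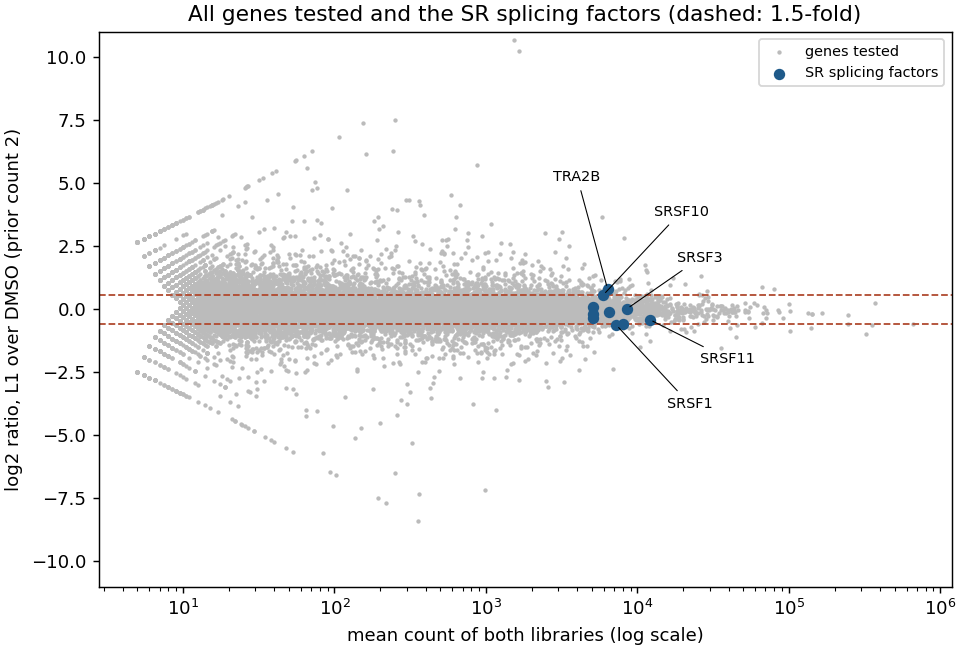
Log2 ratio of L1 over DMSO, with a prior count of 2, against the mean count of both libraries on a log axis for the 18123 genes tested, with the 10 SR splicing factors as dark points and 1.5-fold as dashed lines. The members lie among the genes with many counts, where few genes stand far from 0, with TRA2B at the upper and SRSF1 at the lower edge of the members.

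The FPKM values, which the authors scaled by gene length and library, give the level of the members against each other. In the DMSO library SRSF2 was the highest at 56.1 FPKM, followed by SRSF7 at 55.7, SRSF11 at 54.0, SRSF1 at 50.4, SRSF3 at 40.1, SRSF6 at 38.7, SRSF4 at 36.6 and SRSF5 at 33.7. SRSF10 at 13.8 FPKM and TRA2B at 12.1 FPKM were the lowest. In the L1 library SRSF2 was at 60.2 FPKM, SRSF7 at 52.5, SRSF11 at 40.9, SRSF3 also at 40.9, SRSF1 at 32.9, SRSF6 at 30.7, SRSF5 at 29.7, SRSF4 at 24.2, TRA2B at 21.3 and SRSF10 at 20.5. Thus 4 genes (SRSF2, SRSF7, SRSF11 and SRSF6) kept their place, while SRSF1 and SRSF3, SRSF4 and SRSF5, and SRSF10 and TRA2B changed places. Even the lowest of these levels, TRA2B in DMSO, lay at percentile 72.7 of the genes with an FPKM value, so every member was among the more abundant transcripts.

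As shares of the members' summed FPKM, which was 391 in DMSO and 354 in L1, the makeup of the group differed between the libraries. TRA2B made up 3.10% in DMSO and 6.03% in L1, and SRSF10 3.53% and 5.79%. SRSF1 made up 12.9% in DMSO and 9.30% in L1, and SRSF4 9.35% and 6.85%. SRSF2 made up 14.3% and 17.0%, SRSF3 10.3% and 11.5%, and SRSF7 14.2% and 14.8%. Thus TRA2B, SRSF10, SRSF2, SRSF3 and SRSF7 held a larger share in the L1 library, and the other 5 genes a smaller one.

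**Figure D3:**
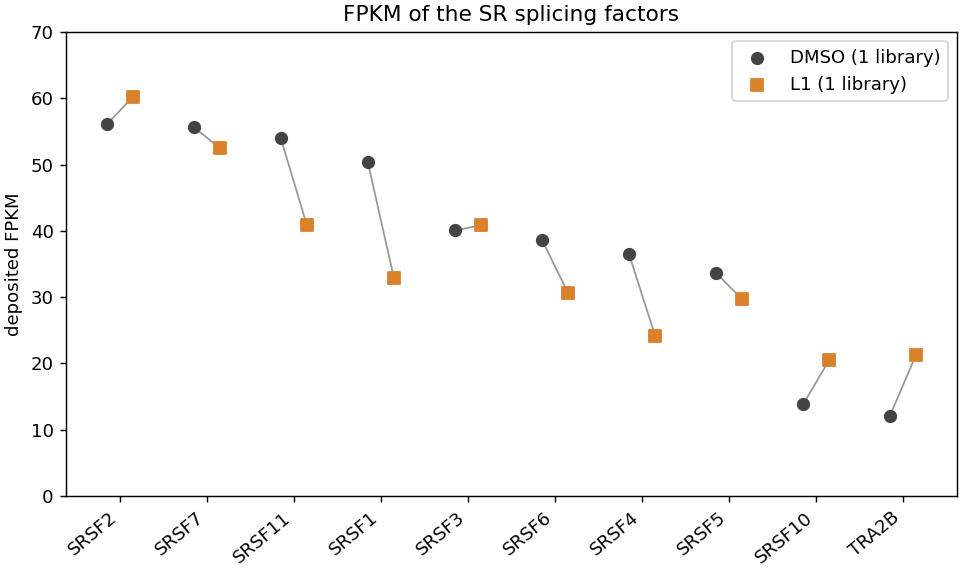
Deposited FPKM of the 10 SR splicing factors in the DMSO and the L1 library, 1 library per condition and no error bars. SRSF2 is the highest in both, at 56.1 and 60.2 FPKM, and TRA2B goes from 12.1 to 21.3 FPKM.

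The order of the levels depends on the gene length behind them. For TRA2B the FPKM values imply a length of 12998 bases, above its exon union of 11769 bases, whereas the median coding transcript has 943 bases. For SRSF1 the implied length of 5743 bases exceeds the exon union of 3340 bases in this annotation. The same holds for SRSF10 (11782 against 10277 bases) and SRSF6 (4862 against 4593 bases), so the authors' gene models differed from this annotation. Per kilobase of the median coding transcript, a scale added after the values were seen, TRA2B had a scaled level (CPM per kilobase) of 167 under DMSO and 294 under L1, and went from place 5 to place 1 of the 10. On that scale SRSF1 went from place 1 (204) to place 4 (134), and SRSF10 from place 9 (99.8) to place 3 (148). SRSF6 was last in both libraries at 43.5 and 34.5. This scale divides the reads of all transcripts of a gene by the length of its annotated coding transcripts, complete or not. Its places therefore do not rank the coding RNA of the members. The length chosen for a gene is the same in both libraries, so it changes comparisons between genes and not the ratio of L1 over DMSO. That ratio would still change if the mix of long and short transcripts of a gene differed between the libraries, which was not tested.

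The members lie on 7 chromosomes of GRCh38, as annotated in GENCODE release 29. SRSF1 (ENSG00000136450) lies at chr17:58003360-58007346 and SRSF2 at chr17:76734115-76737374, both on the minus strand. SRSF4 at chr1:29147743-29181987 and SRSF10 at chr1:23964804-23980927 are also on the minus strand, while SRSF11 at chr1:70205682-70253052 is on the plus strand. SRSF3 (chr6:36594353-36605600), SRSF5 (chr14:69726900-69772005) and SRSF6 (chr20:43457928-43464247) are on the plus strand, and SRSF7 (chr2:38743599-38751494) and TRA2B (ENSG00000136527, chr3:185915906-185938136) on the minus strand. Thus the members that share a chromosome did not share a ratio, with SRSF10 at 0.57, SRSF4 at -0.59 and SRSF11 at -0.40 on chromosome 1. Retained-intron transcripts were annotated for all members but SRSF6 and SRSF11, with 8 each for TRA2B and SRSF5.

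Reads of overlapping genes bear on SRSF1 and SRSF2. Exons of SRSF1 share 1890 bases on the same strand with AC015813.2, which had 212 and 234 counts in DMSO and L1, and 53.0% of the 31-base words in SRSF1 transcripts also occur in transcripts of that gene. A further 440 bases lie opposite AC015813.5, which had 294 and 317 counts. Summing the overlapping genes with SRSF1 gave a log2 ratio of -0.55, below 0 but no longer past 1.5-fold. SRSF2 overlaps MFSD11 on the other strand over 1106 bases, and MFSD11 had 1050 and 768 counts. Summing both moved the log2 ratio of SRSF2 from 0.10 to 0.05. Whether the counting used strand is not given in the sources used here, so reads of such pairs cannot be told apart. The pseudogene SRSF6P2 had 4 and 14 counts, and those named after the other members had at most 5.

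Promoter sequences from RefSeq (GRCh38.p14, 250 bases before to 50 after a start site) were matched for 9 of the 10 members. Those of SRSF1 and TRA2B are shown because they belong to the lowest and the highest ratio, with GCGTG in capitals on either strand (CACGC on the other). GCGTG is the core of the element bound by the aryl hydrocarbon receptor, for which 3,3'-diindolylmethane, the parent compound of L1, is a known ligand.
SRSF1, chr17:58007197-58007496, minus strand: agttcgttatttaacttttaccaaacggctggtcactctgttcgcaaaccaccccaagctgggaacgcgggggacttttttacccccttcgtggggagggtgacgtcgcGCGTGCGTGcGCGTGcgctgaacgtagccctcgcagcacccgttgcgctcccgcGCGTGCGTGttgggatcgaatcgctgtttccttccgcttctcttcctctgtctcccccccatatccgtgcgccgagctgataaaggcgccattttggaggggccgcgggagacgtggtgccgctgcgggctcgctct
TRA2B, chr3:185937965-185938264, minus strand: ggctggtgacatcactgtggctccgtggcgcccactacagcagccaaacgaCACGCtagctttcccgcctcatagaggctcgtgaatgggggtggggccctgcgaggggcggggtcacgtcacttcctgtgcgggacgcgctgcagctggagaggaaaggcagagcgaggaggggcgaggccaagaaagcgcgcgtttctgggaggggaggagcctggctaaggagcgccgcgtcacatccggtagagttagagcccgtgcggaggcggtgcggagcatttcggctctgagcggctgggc
The SRSF1 promoter held 5 matches, some of them overlapping, and had a GC content of 62.0%, and that of TRA2B held 1 and had 66.7%. Counting a member where any of its start sites had a match, GCGTG occurred in promoters of 7 of the 9 members, among them genes with higher and with lower ratios, and in 36.5% of all 35116 promoters, whose median GC content was 58.7%. Of the other motifs searched on both strands, TGACG, the core bound by CREB and ATF factors, was in promoters of 6 members and in 24.6% of all promoters. CCAAT was in that of SRSF3 alone (34.6% of all), and TTCNNGAA, the core bound by heat shock factors, in those of 0 members (7.74% of all). Members were counted over 1 or more start sites and all promoters singly, so nothing is read from these shares. A match describes the letters of the window and no binding was measured.

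Related genes of the splicing machinery were read from 7 lists, whose medians ranged from -0.12 to 0.08. Of the 163 genes tested in these lists, 128 lay within 1.2-fold, and 3 were higher and 7 lower past 1.5-fold. With the prior count of 2, PTBP2 alone passed 2-fold, while SRPK3, with 11 and 4 counts, passed it only without the prior count. Past 1.5-fold, 13.8% of all genes tested were higher and 11.4% lower, and 5.55% and 6.17% of those with at least 5000 counts. The share of all genes within 1.2-fold was not computed. As a background for the genes above and below 0 in each list, 49.6% of all genes tested and 45.5% of those with at least 5000 counts were above 0. The medians near 0 depend on the scaling. Under total counts those of the 3' splice site and U2 snRNP list and of the tri-snRNP list turned from -0.02 to 0.03, that of the hnRNP and PTB proteins was -0.014, and the median of all genes moved to 0.05. Under DESeq2 size factors the median of the U1 snRNP and Sm list turned from 0.01 to -0.02.

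**Figure D4:**
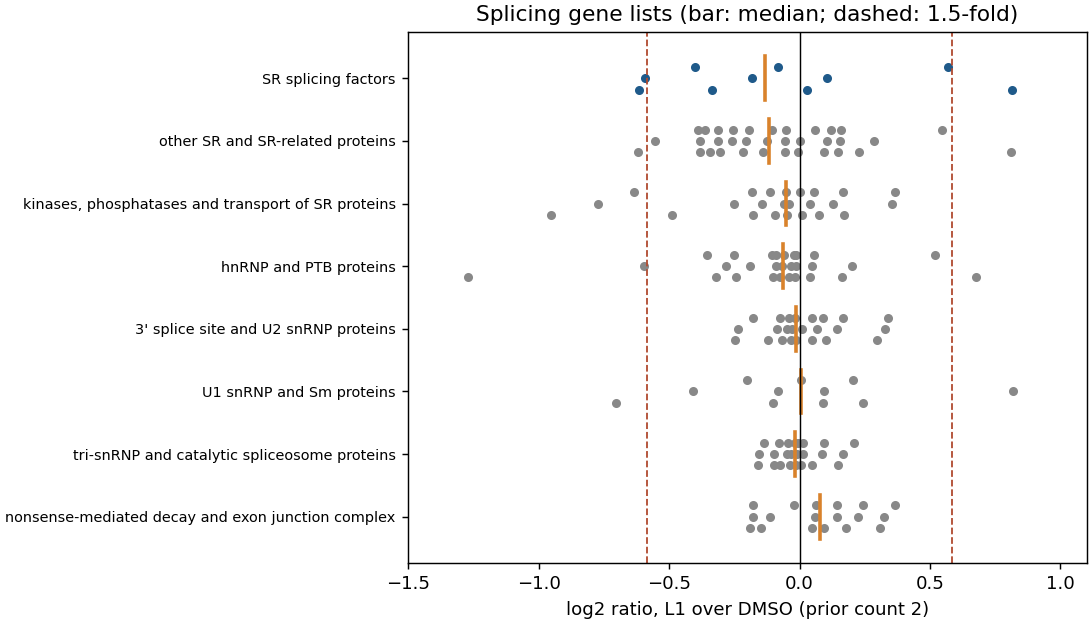
Log2 ratio of L1 over DMSO, with a prior count of 2, for each tested gene of the SR splicing factors and of 7 lists of related genes, with the median of each list as a vertical mark and 1.5-fold as dashed lines. The list medians lie between -0.13 and 0.08, while single genes such as TRA2B at 0.81 and PTBP2 at -1.27 stand apart.

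Among the other SR and SR-related proteins, 34 of 35 listed genes were tested, with a median of -0.12. Of these, 12 were above 0 and 22 below, with 1 higher and 1 lower past 1.5-fold. PRPF38B had 1748 counts under DMSO and 2649 under L1 (log2 ratio 0.81, 0.73 to 0.90), while ARGLU1 had 8270 and 4639 (-0.62, -0.67 to -0.57). SRRM2, a scaffold of nuclear speckles, was at 0.55 and SCAF11 at 0.29, and LUC7L3 was at -0.55 and RBM39 at -0.39. TRA2A, the paralog of TRA2B, had 1964 and 1984 counts and a log2 ratio of 0.23 (0.14 to 0.32), in the direction of TRA2B but with an interval apart from it. TRA2A was named after its value was seen.

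The kinases, phosphatases and transport factors of SR proteins had a median of -0.05 over 24 genes, 10 above 0 and 14 below, with 0 higher and 3 lower past 1.5-fold. CLK1, a nuclear kinase of SR proteins, had 4419 counts under DMSO and 2232 under L1, with a log2 ratio of -0.77 (-0.85 to -0.70). CLK4 had 681 and 378 counts (-0.64, -0.82 to -0.45), and CLK2, inside 1.5-fold, had 1930 and 1185 (-0.49, -0.60 to -0.39). The third gene past 1.5-fold was SRPK3, with 11 and 4 counts, whose interval of -3.35 to 0.51 included 0. Its exons overlap those of PLXNB3, which had 196 and 193 counts. Without the prior count, the log2 ratio of SRPK3 turned from -1.25 alone to 0.14 summed with that gene. CLK3 at 0.13 and SRPK1 at 0.00 (-0.05 to 0.05), both named after their values were seen, did not share the lower ratio of CLK1, CLK2 and CLK4. NXF1, the mRNA export receptor, was at 0.36, DYRK1A at 0.35 and CDK11A at 0.17, and the latter has a near-identical copy, CDK11B, that may share its reads. Summed with the gene that overlaps it, CDK11A was at 0.07.

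The hnRNP and PTB proteins, many of which oppose SR proteins at exons, had a median of -0.06 over 28 genes, 7 above 0 and 21 below. PTBP2, the neuronal form of the polypyrimidine tract binding protein, had 2070 and 738 counts (-1.27, -1.40 to -1.15), and PTBP3 had 3136 and 4326 (0.68, 0.61 to 0.74). HNRNPDL had 14809 and 8441 counts (-0.60, -0.64 to -0.56), so past 1.5-fold 1 gene of the list was higher and 2 were lower. HNRNPM was at 0.52, HNRNPL at 0.20 and HNRNPH1 at -0.35.

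The next lists hold core proteins of the spliceosome. The 3' splice site and U2 snRNP list had a median of -0.02 over 24 genes, 11 above 0 and 13 below, from U2AF2 at -0.25, SF3B3 at -0.24 and DDX46 at -0.18 to PUF60 at 0.30, SUGP1 at 0.33 and ZRSR2 at 0.34. The tri-snRNP and catalytic list had a median of -0.02 over 24 genes, 9 above 0 and 15 below, from SNRNP40 and SART3 at -0.16 and PPIH at -0.14 to PLRG1 at 0.15, DHX16 at 0.17 and SLU7 at 0.21. Summed with the genes that overlap them, DDX46 was at -0.08 with C5orf24 and DHX16 at 0.02 with C6orf136. In both of these lists 0 genes passed 1.5-fold.

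The U1 snRNP and Sm list had a median of 0.01 over 11 genes, 6 above 0 and 5 below, with 1 higher and 1 lower past 1.5-fold. SNRPD2, a core Sm protein, had 5952 and 9052 counts (0.82, 0.77 to 0.86), and SNRPA, a protein of the U1 snRNP, had 3460 and 1833 (-0.70, -0.79 to -0.62). Summed with C19orf54, whose exons overlap it, SNRPA was at -0.56 and inside 1.5-fold. SNRPB was at 0.24, SNRPG at 0.20, SNRNP70 at -0.20 and SNRPN at -0.41, and SNRPN shares exons with SNHG14.

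The last list holds factors of nonsense-mediated decay, the pathway that degrades transcripts with early stop codons, and of the exon junction complex. It had a median of 0.08 over 18 genes. Of these, 12 were above 0, 6 were below and 0 passed 1.5-fold. UPF1, the helicase of the pathway, was at 0.32, UPF2 at 0.31 and NBAS at 0.36, while UPF3A was at -0.19 and SMG6 and CASC3 at -0.18.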

How the data were processed

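RNA-seq of HEL cells, 1 library per condition, was analysed from the deposited tables. The authors deposited raw read counts for each Ensembl gene, without normalization, and FPKM values for the genes above 1 CPM in both libraries, which carry the same library ratio (1.16) as TMM. The submitters' processing notes name fastp 2.0, HISAT2 2.1.0, StringTie and hg38. The annotation, the counting program and the use of strand are not given in the sources used here.

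Counts were scaled with edgeR 4.0.16 (TMM, R 4.3.3), and Python 3.11.15 with scipy 1.17.1 gave exact 95% Clopper-Pearson intervals of each ratio. Ratios over all genes, and the counts and medians of lists, were computed with a prior count of 2 over genes that reached 10 counts in either library. FPKM values were used as levels. Intervals cover counting error only, and PCR duplicates were not separated. No test was made, since 1 library per condition gives no spread between replicates. Groups were taken from the treatment label of each sample, and count columns from the sample titles and descriptions. Of the count columns 0 were left unmapped, and 1 line without a value in an FPKM table was left out.

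The members and the gene lists were chosen with earlier results of these data known. The genes named are all members and, in each list, the 3 with the highest and the 3 with the lowest ratio among genes with at least 100 counts. TRA2A, CLK3, SRPK1 and SRPK3, and genes that overlap a listed gene, are named outside this rule, after their values were seen. Gene models came from GENCODE release 29 and promoters from RefSeq. The scripts were tested on simulated data. Alternatives were other scalings (total counts, DESeq2 1.42.0 size factors, upper quartile), the FPKM values with a pseudocount of 0.1, other prior and minimum counts, protein-coding genes alone, whole intervals past the fold, and sums with pseudogenes or overlapping genes. A minimum of 5000 counts, the length of the median coding transcript and sums for the listed genes were added after seeing the data.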

Additional observations from a re-analysis of the deposited data

How the results depend on the processing

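No paired analysis was possible because there was a single library for DMSO and a single one for L1, which also leaves every result without a replicate check. Of 60 member ratios recomputed under the alternatives, 54 stayed within their counting interval, 6 moved beyond it, and none of the called ratios turned in direction. Many of these values could not move, so the 54 do not measure how stable the ratios are. The FPKM values carry the library ratio of TMM, and each other scaling shifts all members by the same amount. A sum changed nothing for a member without counted pseudogenes or overlapping genes. The ratio of SRSF3 ran from -0.0046 to 0.08 and that of TRA2B from 0.78 to 0.86. The number of SR splicing factors at least 1.5-fold higher was 2 under total counts and 2 under the upper quartile. The number at least 1.5-fold lower was 0 under total counts, 0 under the upper quartile, 0 with the whole interval past the fold and 1 with overlapping genes summed. The median of the hnRNP and PTB proteins was -0.014 under total counts. The other 73 of 74 list medians moved by no more than the mean half-width of the middle genes of their list. That half-width was 0.044 for the hnRNP and PTB proteins and from 0.054 to 0.086 in the other lists. Each other scaling shifts all medians by nearly the same amount, and the FPKM values change them little. The 73 therefore do not measure how stable the medians are.

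Over all genes tested, 2506 were higher and 2065 lower past 1.5-fold, and 1290 were higher and 876 lower past 2-fold. In the same order the counts were 974, 1016, 348 and 298 of 13924 genes with FPKM, 5936, 4227, 3544 and 1811 of 27464 with no minimum, 912, 1016, 387 and 361 of 12365 with at least 100 counts, 1320, 1247, 688 and 502 of 12970 protein-coding genes, 1033, 798, 547 and 350 with the whole interval past the fold, and 71, 79, 29 and 22 of the 1280 genes with at least 5000 counts. With 10 counts in both libraries, 694 were higher and 491 lower past 2-fold. Of the 20 listed genes with overlaps that were summed with them, 5 (DDX46, DHX16, SNRPA, SNRPN and SRRM2) moved beyond their interval.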
